A study of Mus musculus with 22 samples.

Results

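The genes that give endothelium its identity were followed through mammary tumor progression by the methylation of their CpGs. Members were 9 genes (Esam, Cdh5, Pecam1, Icam2, Tie1, Robo4, Eng, Egfl7 and Emcn), and their CpG positions were those covered in all 22 samples and lying in the gene body or within 2 kb of any RefSeq transcription start site. These were 228 of 1140639 positions, of which 79 were in promoters (within 2 kb of a start site) and 149 in gene bodies. Egfl7 held 56 of them, Esam 35, Pecam1 and Eng 34 each, Tie1 32, Robo4 15, Cdh5 14, Emcn 6 and Icam2 2. Each strand of a CpG counted as a position of its own. The same genes had 337 positions in at least 1 sample.

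Methylation was measured by enhanced reduced representation bisulfite sequencing (ERRBS), which reads bisulfite-converted DNA at CpG-rich fragments of the genome. PyMT mice were F1 females heterozygous for the MMTV-PyMT transgene, which expresses the polyoma virus middle T oncogene from a mammary tumor virus promoter active in mammary epithelium. They came from transgenic males of an FVB/N line mated to FVB females. Age-matched FVB females without the transgene were the controls, so both genotypes had the FVB background. Bulk mammary tumors or whole glands, snap frozen, were taken at week 6 (hyperplasia in PyMT mice), week 8 (adenoma or mammary intraepithelial neoplasia, adenoma/MIN), week 10 (early carcinoma) and week 12 (late carcinoma), with 2, 3, 3 and 2 PyMT samples and 3 FVB samples at each week; the authors had removed 2 outlier samples. Endothelium was not isolated, so fewer cells of a type and a different methylation level per cell cannot be told apart in any value below, and RNA was not analysed here, so the label of the genes was not checked against expression. No group received a treatment.

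Each sample had 1314077 to 1435757 positions at a coverage of at least 10 reads, with a mean coverage of 60.2 to 79.2 reads, and the 228 positions averaged 70.5 reads (20.4 to 175 per position). Across the positions covered in all 22 samples the mean methylation per sample was 24.6% to 25.2% in PyMT and 25.8% to 26.3% in FVB. The PyMT sample farthest from the others of its genotype over all promoters was replicate 1 of week 8, at a mean distance of 1.54 percentage points. Without it, every promoter and gene body of the 9 genes with at least 3 positions kept its direction and its side of the threshold. Reads without molecular identifiers are not independent molecules, so coverage states the counting precision only.

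Endothelial cells line blood vessels and are held together by junctional adhesion proteins, respond to growth and guidance cues through dedicated receptors, and shape the surrounding matrix. In many tissues the start sites of such lineage genes carry little DNA methylation in endothelium and more in cells of other lineages. A gland or tumor also holds epithelium, fat, fibroblasts and leukocytes, so the level read in bulk DNA is an average over all of them.

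3 stretches of reference sequence are printed because they hold neighbouring CpGs that moved together or moved unequally. They were read 5′ to 3′ on the plus strand of mm10 (GRCm38.p6), in lower case with the measured CpGs in capitals. The first lies in an intron of Egfl7 at chr2:26586965-26587264 and runs from the edge of a nearly unmethylated island outward, with 10 of its 14 CpGs measured. The second spans intron 5 and coding exon 5 of Tie1 at chr4:118484245-118484404, where methylation fell, with 3 of 4 CpGs measured. The third lies in intron 3 of Eng at chr2:32671226-32671297, where it rose, with 4 of 4 CpGs measured. Promoter sequences from RefSeq (mm10) were at hand for 5 of the 9 genes and are not printed for Esam, Cdh5, Pecam1 and Icam2.
Egfl7 island edge: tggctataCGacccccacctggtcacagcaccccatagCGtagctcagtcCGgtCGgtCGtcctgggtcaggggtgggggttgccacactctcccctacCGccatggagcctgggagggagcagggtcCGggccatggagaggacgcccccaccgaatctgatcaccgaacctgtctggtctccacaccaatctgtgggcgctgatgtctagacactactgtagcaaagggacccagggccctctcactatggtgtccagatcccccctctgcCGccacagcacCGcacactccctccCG
Tie1 intron 5 to exon 5: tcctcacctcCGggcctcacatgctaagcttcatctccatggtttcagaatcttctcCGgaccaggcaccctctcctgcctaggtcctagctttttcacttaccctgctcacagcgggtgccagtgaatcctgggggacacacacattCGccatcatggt
Eng intron 3: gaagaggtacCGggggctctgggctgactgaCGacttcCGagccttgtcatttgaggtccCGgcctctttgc

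At every stage a larger share of the endothelial gene positions than of all positions was hypermethylated in PyMT. A differentially methylated cytosine (DMC) was a position with q under 0.01 in the logistic test of pooled reads and a difference of at least 10 percentage points between PyMT and the age-matched FVB samples. Hyper-DMCs numbered 25 of the 228 at hyperplasia (11.0%, against a background of 2.62% of all positions), 31 at adenoma/MIN (13.6%, background 3.20%), 37 at early carcinoma (16.2%, background 4.39%) and 35 at late carcinoma (15.4%, background 4.44%). Hypo-DMCs numbered 19 at hyperplasia (8.33%, background 6.01%), 19 at adenoma/MIN (8.33%, background 7.10%), 27 at early carcinoma (11.8%, background 8.42%) and 22 at late carcinoma (9.65%, background 8.53%). The shares of hypo-DMCs were near their background. Esam gave 9 to 12 of the hyper-DMCs at each stage, and over the other 193 positions the shares were 8.29%, 9.84%, 13% and 11.9%. Neighbouring positions lie on the same reads and are not independent, so these shares are descriptions. They rest on pooled reads, which leave out the spread between mice.

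15 of the 228 positions were hypermethylated at all 4 stages, against 1.05% of all positions, 9 of them in Esam and 2 each in Pecam1, Egfl7 and Eng. 5 were hypomethylated at all 4 stages, against 3.27% of all positions, 4 in Tie1 and 1 in Emcn. With a difference of at least 25 points, hyper-DMCs numbered 9, 9, 16 and 13 of the 228 at the 4 stages in order, against 0.854%, 1.05%, 1.55% and 1.82% of all positions. Hypo-DMCs of that size numbered 4, 5, 6 and 7, against 2.81%, 3.12%, 4.05% and 4.57%. When the spread between mice was used instead, by limma on percent methylation with adjusted p under 0.01 and the same 10 points, 1, 2, 13 and 11 of the 220 positions that could be fitted were higher at the 4 stages in order, against 0.134%, 0.449%, 1.06% and 1.15% of all positions. By that test 0, 1, 4 and 1 were lower, against 0.630%, 1.54%, 2.86% and 2.55% of all positions. At hyperplasia 24 of the 220 were lower and 24 higher at an unadjusted p under 0.05, against 7.65% and 6.04% of all. Averaged over the 4 weeks, 46 of the 220 were higher and 32 lower at a limma adjusted p under 0.05, beside 6.86% and 11.5% of all positions.

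**Figure D1:**
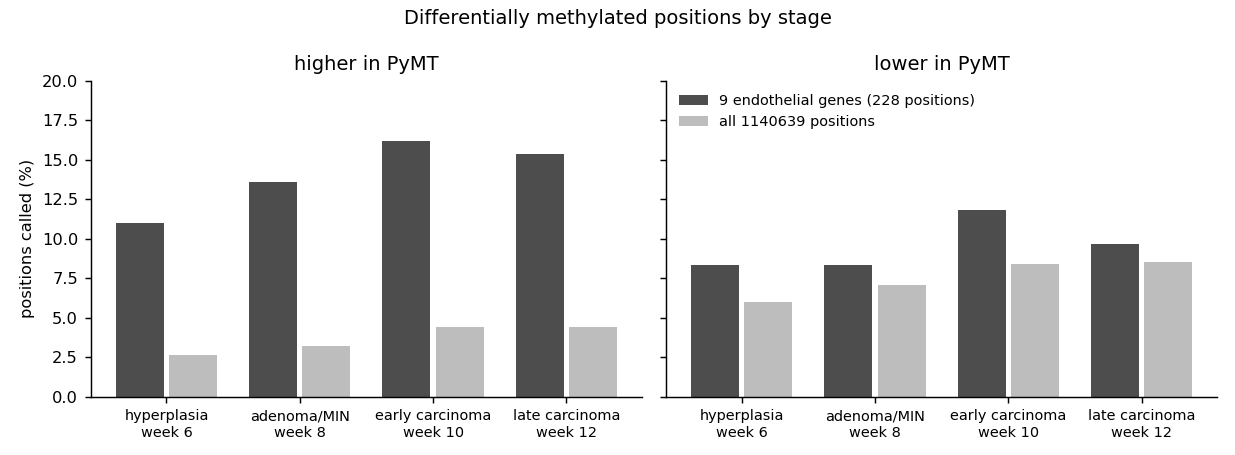
Share of positions called as DMCs (percent, y axis) at each stage for the 228 positions of the 9 endothelial genes (dark bars) and for all 1140639 positions (light bars), higher in PyMT on the left and lower on the right. The dark bars for higher methylation reach 11.0% to 16.2% while the light bars reach 2.62% to 4.44%, and the bars for lower methylation stand closer together.

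By promoter, Esam, Pecam1 and Egfl7 were higher in PyMT, Cdh5 was lower and Robo4 was not called, so 3 of the 5 members with at least 3 promoter positions rose, where 17.0% of 16404 promoters were higher, and 1 fell, where 16.9% were lower. The promoter level is the mean percent methylation over its positions, the difference is the mean of the 4 weekly PyMT minus FVB differences in percentage points, and limma was fitted across all promoters. The median difference was +5.83 points over the 5 members and -0.00816 over all promoters. A change of the difference with week was called for 0 of the 5, where 3.40% of all promoters were called, and 1 of the 5, Esam, had an unadjusted p under 0.05. By gene body, 1 of 8 members was higher (20% of 11437 bodies) and 4 were lower (46.4%), with 0 called for a change with week (2.19% of all) and 0 at an unadjusted p under 0.05. The median body difference was -3.32 points for the members and -1.71 for all bodies.

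Esam, an immunoglobulin-family adhesion protein of endothelial tight junctions, showed the largest rise among the measured promoters of the 9 genes. Over its 12 promoter positions the PyMT samples measured 46.5% and 55.2% at week 6, 53.4%, 48.8% and 64.0% at week 8, 70.0%, 62.2% and 57.6% at week 10, and 71.3% and 57.5% at week 12. The FVB samples measured 27.4%, 31.0% and 24.1% at week 6, 33.9%, 14.2% and 23.9% at week 8, 18.2%, 21.3% and 27.2% at week 10, and 22.6%, 18.1% and 19.6% at week 12. Every PyMT sample lay above every FVB sample. The difference averaged +35 points (SE 2.70, limma adjusted p = 1.54e-08), and the exact permutation p, 2.5e-05, was the smallest that the 40000 arrangements of genotypes within weeks can give. By week it was +23.4, +31.4, +41.0 and +44.3 points, with a slope of 3.62 points per week (SE 1.26) whose limma adjusted p over all promoters was 0.163.

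The Esam rise covered both sides of the start site and was not seen in the clusters further into the gene. All 12 promoter positions were higher in PyMT at the level of single positions, with differences from +20.2 to +44.9 points, and 5 of the 12 did not overlap between the genotypes. The share of all positions without overlap was not counted. Positions were also grouped into CpG clusters, runs of at least 3 positions with gaps of at most 100 bp, a unit chosen after seeing the data; 84492 clusters were tested, of which 16.6% were higher, 31.7% lower and 1.33% changed with week. The 6 positions from 106 to 84 bp upstream of the start (chr9:37527983-37528005) averaged 61.2% in PyMT and 19.2% in FVB, a difference of +42.2 points (SE 4.67, limma adjusted p = 9.89e-07). The 6 positions from 90 to 216 bp downstream (chr9:37528179-37528305), running from exon 1 into intron 1, rose by +27.9 points (SE 1.94, adjusted p = 5.62e-09). The positions with the largest changes, at 37527994, 37527996 and 37527999, rose by +44.9, +44.1 and +43.5 points. Further in, 2 intron 1 clusters at 2250 to 2388 and 2864 to 2939 bp were at 0.335% and 0.783% in PyMT and 0.256% and 0.702% in FVB. In coding exon 2 (chr9:37531500-37531620) the 11 positions moved the other way, from 13.5% in FVB to 6.49% in PyMT, a difference of -7.05 points (SE 1.27, limma adjusted p = 0.000178). The Esam body as a whole, of 23 positions, fell by 3.31 points (SE 0.617, limma adjusted p = 0.00014).

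**Figure D2:**
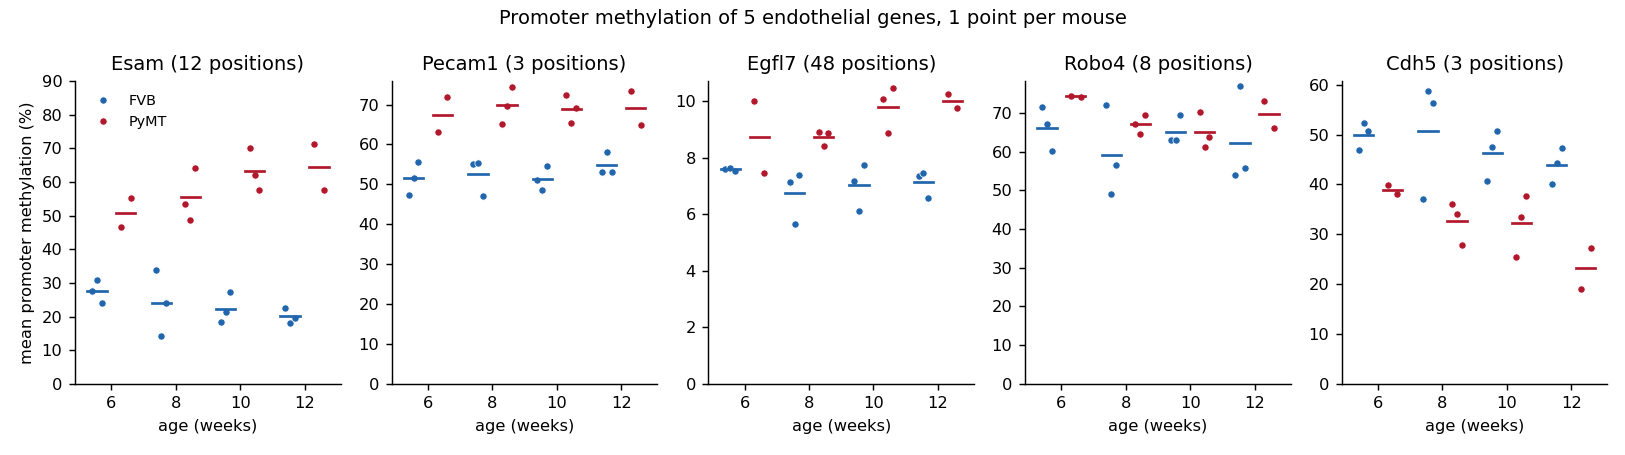
Mean promoter methylation (percent, y axis, starting at 0) of each mouse at weeks 6 to 12 for the 5 members with at least 3 promoter positions, FVB in blue and PyMT in red, with a bar at each group mean. Within each week the PyMT points lie above the FVB points for Esam and Pecam1 and below them for Cdh5, while the genotypes overlap at week 6 for Egfl7 and at weeks 8, 10 and 12 for Robo4.

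Pecam1 (CD31), an adhesion receptor at endothelial junctions that is also found on leukocytes and platelets, was higher in its promoter mean and lower in its body mean. Its 3 promoter positions lie in intron 2, 1683 to 1759 bp downstream of the start (chr11:106713522-106713598), and none lies within 500 bp of it. Of these, 2 are the strands of 1 CpG. Singly, those 2 were called higher, by up to +34.2 points. The other position, of another CpG, changed by -8.13 points and was not called, so the rise rests on 1 CpG. PyMT samples ranged from 63.0% to 74.5% around a median of 69.4%, and FVB samples from 47.0% to 58.2% around a median of 53.1%. The genotypes did not overlap, and the difference was +16.3 points (SE 1.87, limma adjusted p = 1.7e-06), between +14.4 and +17.5 at each week. An intronic cluster of 5 positions near the other end of the gene (chr11:106659520-106659642) had 18.1% in FVB and 5.84% in PyMT, a difference of -12 points (SE 1.74, limma adjusted p = 1.88e-05). A single intronic position, 106683700, rose by +24.6 points, while another, 106699516, fell by 25.7 points at a mean coverage of 22.3 reads. Over the 31 body positions Pecam1 fell by 3.33 points (SE 1.02, limma adjusted p = 0.00812). At week 12 its positions were covered 1.17 times as deeply in PyMT as in FVB relative to the sample mean (1.09 to 1.24 in PyMT, 0.861 to 1.07 in FVB), against 0.978 to 0.996 at the earlier weeks, and whether this had a part in the values was not tested.

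Cdh5 (VE-cadherin), the cadherin of endothelial adherens junctions, was the member whose promoter fell. Its 3 promoter positions lie between -1871 and -1751 bp from the start, upstream of it (chr8:104099754-104099874), inside the long noncoding RNA gene Gm29682, and none lies within 500 bp of the start. The PyMT samples measured 39.97% and 38.003% at week 6, 36.1%, 34.1% and 27.9% at week 8, 25.4%, 33.5% and 37.7% at week 10, and 19.1% and 27.3% at week 12. The FVB samples measured 46.9%, 52.3% and 50.8% at week 6, 37.2%, 58.8% and 56.4% at week 8, 40.8%, 47.4% and 50.6% at week 10, and 40.1%, 44.3% and 47.3% at week 12. Within each week every PyMT sample was below every FVB sample, although the genotypes overlapped across weeks. The difference was -16 points (SE 2.53, limma adjusted p = 5.73e-05), and the exact permutation p was 2.5e-05. 2 of the 3 positions were called singly, 104099783 with -20.7 and 104099874 with -21.8 points. The 11 body positions were at 81.7% in PyMT and 82.4% in FVB (difference -0.65 points, SE 1.21, limma adjusted p = 0.653), with 1 position of coding exon 12, 104142681, lower by 11.9 points at 25.7 reads.

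Icam2, an adhesion ligand for leukocyte integrins, had 2 measured positions, both in its body, at 31.3% in PyMT and 33.9% in FVB. The samples ranged from 20.8% to 41.7% in PyMT and from 23.4% to 42.9% in FVB, and neither position was called at any stage. No promoter position of Icam2 was covered in all samples.

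Tie1, an orphan receptor tyrosine kinase that modulates angiopoietin signaling, was lower in PyMT in its body mean. The 31 body positions ranged from 68.0% to 79.5% in PyMT (median 76.1%) and from 78.3% to 84.5% in FVB (median 81.6%), a difference of -6.09 points (SE 1.12, limma adjusted p = 0.000122). 8 body positions were called lower, none higher and 23 were not called, and 4 of the 5 CpG clusters were lower. The cluster not called, of 14 positions from coding exon 2 to intron 1, was at 75.6% in PyMT and 77.0% in FVB. Its difference was -2.05 points (SE 1.72, limma adjusted p = 0.37). The cluster of intron 5 and coding exon 5 whose sequence is printed above (positions 118484255 to 118484394) had the largest fall, from 72.4% in FVB to 57.3% in PyMT, a difference of -15.5 points (SE 2.44, limma adjusted p = 4.65e-05) that measured -11.3, -14.1, -12.4 and -24.3 points by week. The fall was unequal within those letters, since the outer CpGs changed by -27.5 points on the plus and -16.6 on the minus strand of the first and by -31.7 points at the last, 118484394, while the CpG between them changed by -1.59 and -0.0982 points. Averaged over all samples, the strands of that middle CpG disagreed, at 49.8% on the plus and 94.3% on the minus strand. Those of the first CpG were at 70.1% and 42.4%. At 118484394 the PyMT samples ranged from 32.2% to 72.2% and the FVB samples from 76.4% to 98.4%, without overlap. Coding exons 15, 12 and 8 fell by 7.75, 4.66 and 6.02 points, with 118476184 in exon 15 down by 28.9 points. The exon 8 fall was no longer called without replicate 3 of PyMT week 12 (-4.65 points, limma adjusted p = 0.0644) or without replicate 1 of PyMT week 6 (-4.82 points, adjusted p = 0.0616). The single promoter position of Tie1 went the other way, at 73.0% in PyMT and 61.4% in FVB (+12.1 points, SE 3.24).

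Robo4, the endothelial roundabout receptor linked to vessel stability, changed in both directions within 1 exon. Its promoter, of 8 positions, ranged from 61.2% to 74.4% in PyMT and from 49.0% to 76.9% in FVB, a difference of +5.83 points (SE 3.04) with a limma adjusted p of 0.171. Without replicate 2 of FVB week 12, the highest of the FVB samples, it was +7.65 points (adjusted p = 0.0258), and without replicate 1 of FVB week 8 it was +7.44 points (adjusted p = 0.042). In coding exon 2, 37402652 and 37402843 rose by +14.0 and +13.7 points, while 37402776 between them fell by 17.1 points, from 60.8% in FVB to 42.6% in PyMT. The 7 body positions, in coding exon 12, were at 22.1% and 25.4% (difference -3.63 points, SE 2.35, limma adjusted p = 0.184).

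Eng (endoglin), a co-receptor for ligands of the TGF-β family that is abundant on dividing endothelium, had gains and losses that nearly cancelled in the body mean. The 32 body positions averaged 67.2% in PyMT and 65.5% in FVB (+1.6 points, SE 0.725, limma adjusted p = 0.0609), and 9 were called higher, 3 lower and 20 not called. In intron 3, over the sequence printed above, 8 positions averaged 65.7% in PyMT (61.3% to 69.0%) and 55.6% in FVB (51.3% to 67.7%), a difference of +10.1 points (SE 1.64, limma adjusted p = 6.12e-05). 1 FVB sample of week 6, at 67.7%, lay within the PyMT range. In intron 2 (chr2:32662569-32662617) 4 positions fell from 27.7% to 16.4%, a difference of -11.3 points (SE 1.57, limma adjusted p = 1.2e-05). These were the strands of 2 CpGs, and 1 strand of each was near 0. Averaged over all samples, the CpG at 32662569 had 45.2% on the plus and 2.96% on the minus strand. That at 32662616 had 0.4% on the plus and 41.6% on the minus strand. Near the end of the gene, 32681392 rose by +20.03 points, from 70.5% to 90.2%. The 2 promoter positions covered in all samples were at 15.1% in PyMT and 24.4% in FVB, with FVB samples from 10.0% to 44.1%.

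The strands of a CpG mostly gave the same level, and Eng held most of the exceptions. Of 33 CpGs measured on both strands the median difference between strands was 0.771 points, and 5 differed by over 40 points, 4 in Eng and 1 in Tie1. In the Eng intron 3 sequence the first CpG had 83.3% on the plus and 0.625% on the minus strand, and the last had 1.85% and 79.2%, while the CpGs between them differed by 5.58 and 6.57 points. The rise there was +12.6 points on the methylated strand of the first CpG and +19.5 on that of the last. Without such CpGs the Eng body difference was +2.61 points (limma adjusted p = 0.01), an alternative chosen after seeing the data, and the cause of the strand differences was not tested.

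Egfl7, a secreted matrix protein of endothelium whose gene also hosts the microRNA miR-126, was nearly unmethylated at its most downstream start site and rose there and further into the gene. The promoter, of 48 positions over 3 start sites, averaged 9.31% ± 0.964 (SD, n = 10) in PyMT and 7.12% ± 0.656 (SD, n = 12) in FVB. That was +2.20 points (SE 0.339, limma adjusted p = 4.48e-05) with overlapping genotypes, and 42 of the 48 positions were under 5% in FVB. The island of 40 positions (chr2:26586752-26587094) had 0.282% to 1.07% in FVB and 1.4% to 3.46% in PyMT, without overlap, a difference of +1.73 points (SE 0.214, limma adjusted p = 3.32e-06). Within the sequence printed above the rise was uneven, from +7.11 to +18.2 points at 26587004 to 26587019, where 26587015 went from 2.37% to 19.98%, and from +3.36 to +4.04 points at 26587064 to 26587094. The last 3 positions of that sequence (chr2:26587239-26587264) rose by +11.9 points (SE 1.25, limma adjusted p = 5.18e-07). There the PyMT samples measured 11.2% and 6.41% at week 6, 11.3%, 13.8% and 19.99% at week 8, 20.4%, 21.7% and 27.6% at week 10, and 21.5% and 18.6% at week 12, while the 12 FVB samples ranged from 1.01% to 7.58% around a median of 5.10%. Only the lower PyMT sample of week 6 fell within the FVB range.

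Further into Egfl7, the 6 positions of coding exons 3 and 4 (chr2:26589357-26589446), within 2 kb of the Mir126a and Mir126b starts, rose from 57.6% to 71.6%, by +13.7 points (SE 2.46, limma adjusted p = 0.000165). PyMT samples there ranged from 64.7% to 77.7% and FVB samples from 45.5% to 71.2%. The body mean rose by +7.34 points (SE 1.96, limma adjusted p = 0.0032), with 6 of its 8 positions higher and 2 lower, 26589446 having the largest rise (+19.6 points). Upstream of the most downstream start site, a cluster of 4 positions in a 5′ UTR exon of another transcript (chr2:26585589-26585667) had a difference of -3.35 points (SE 2.52, limma adjusted p = 0.309). Of its positions 26585589 rose by 14.8 points, 26585663 and 26585667 fell by 10.6 and 15.5 points, and 26585603 (-2.08 points) was not called.

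Emcn (endomucin), a sialoglycoprotein of capillary and venous endothelium, was lower in PyMT from a high level. Its 4 body positions averaged 84.1% in PyMT (77.4% to 92.6%) and 89.8% in FVB (83.9% to 93.7%), a difference of -5.56 points (SE 1.73, limma adjusted p = 0.00903) and 137347625 in intron 1 fell by 15.9 points. Both promoter positions, about 1 kb upstream, were called lower singly, 137340073 by 16 points and 137340031 by 4.56 points. Its positions were covered 0.745 times as deeply in PyMT as in FVB at week 12 (0.601 to 0.888 in PyMT, 0.806 to 1.12 in FVB), and whether this had a part in the values was not tested.

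Among the 27 CpG clusters in the 9 genes, 7 were higher (16.6% of all clusters were), 8 lower (31.7% of all) and 12 not called. Some not called lay near the threshold. These were Pecam1 at 15518 to 15775 bp (-3.53 points, limma adjusted p = 0.0519) and Eng at 34766 to 34885 bp (+5.70 points, limma adjusted p = 0.0571) and 11072 to 11116 bp (-11.1 points, limma adjusted p = 0.0592). By exact permutation the Eng clusters had adjusted p = 0.0417 and 0.0494. Of the 27 clusters, 0 changed with week by limma (1.33% of all), with 2 at an unadjusted p under 0.05. The called gains lay within 3 kb of a start site except for that of Eng. Gains and losses alike lay in exons or introns, except for the gain upstream of Esam and the loss upstream of Cdh5. Locations were not counted over all clusters.

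**Figure D3:**
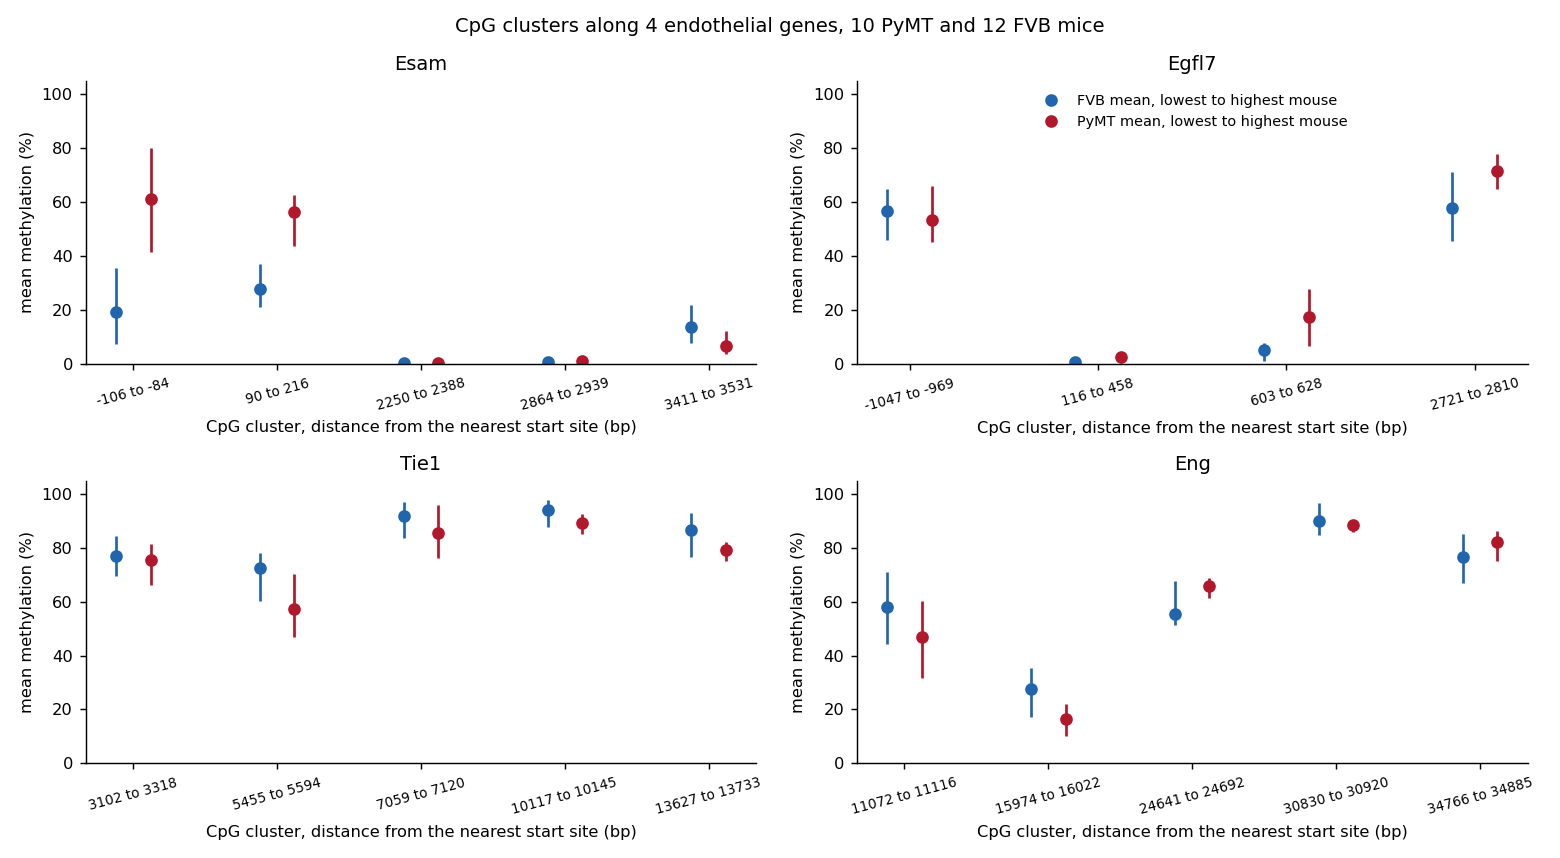
Mean methylation (percent, y axis) of each CpG cluster of Esam, Egfl7, Tie1 and Eng, ordered by distance from the nearest start site in bp (x axis), with a point at the mean and a line from the lowest to the highest mouse for 12 FVB (blue) and 10 PyMT (red) mice. The Esam clusters on both sides of the start separate fully, and its intron clusters sit near 0 in both genotypes. The Tie1 means lie lower in PyMT, least so in the cluster at 3102 to 3318 bp, which was not called.

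**Figure D4:**
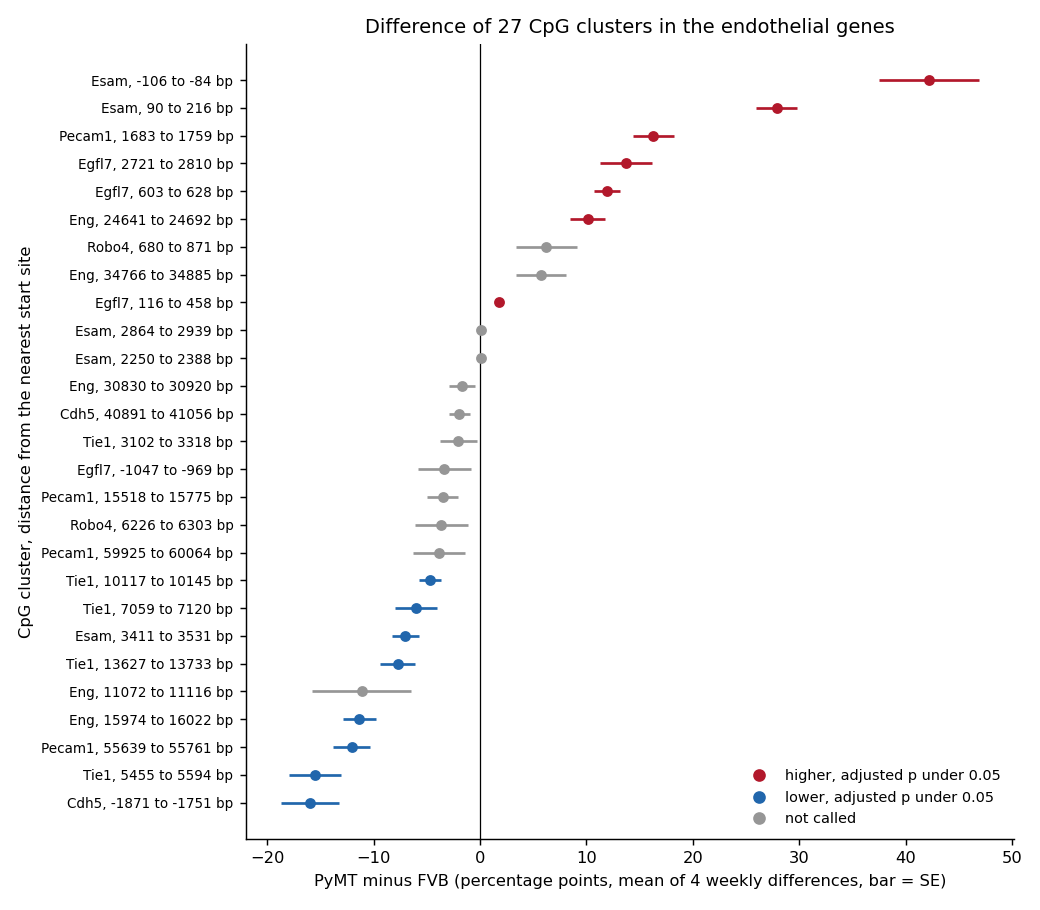
Difference between PyMT and FVB (percentage points, x axis, mean of 4 weekly differences) with its standard error for the 27 clusters, named by gene and distance from the nearest start site, in red or blue where the limma adjusted p was under 0.05. The 2 Esam clusters beside the start stand at +42.2 and +27.9, and the Cdh5 and Tie1 clusters at -16 and -15.5 mark the other end.

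Other endothelial genes, from a list of 48, rose more often than they fell at their promoters. The list was chosen with earlier results of these data known. It includes genes that the authors had named for promoter hypermethylation in these samples, so its counts are descriptions and not a separate test. Of the 42 with at least 3 promoter positions 23 were higher (17.0% of all promoters were), 2 were lower (16.9%) and 17 were not called, and the median difference was +1.15 points. The largest rises were in Lyl1, a hematopoietic and endothelial transcription factor, from 34.4% to 66.3% (+31.5 points, SE 1.80), in Arhgef15, a guanine nucleotide exchange factor of endothelium, from 47.7% to 65.3% (+16.9 points, SE 2.31), and in Aplnr, the apelin receptor, from 65.0% to 81.4% (+16.6 points, SE 3.27). Those that fell were Cldn5, the endothelial claudin, by 2.26 points from 7.70%, and Kdr, the main VEGF receptor, by 0.34 points from 1.47%. The mean level of the list per sample was 13% to 15% in FVB and 16.4% to 18.9% in PyMT, without overlap.

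Markers of the other cell types moved in their own ways. Of 15 luminal epithelial promoters 0 were higher and 14 lower by limma, with 1 not called and a median of -1.92 points, led by Ehf (-44.0) and Cldn4 (-28.9), and their mean level was 4.01% to 6.39% in PyMT and 11.5% to 16.4% in FVB. Of 5 basal promoters 1 rose (Tagln, +30.2 points) and 3 fell (Myh11 by 9.71 points the most). Of 6 adipocyte promoters 2 rose and 3 fell (Cidec by 21.6 and Lep by 14.3 points), of 5 leukocyte promoters 1 rose and 2 fell, and of 8 fibroblast and pericyte promoters 3 rose (Cspg4 by +12.4 and Col1a1 by +3.07 points), 0 fell by limma and 5 were not called. The part of these shifts in the values of the 9 genes was not tested.

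**Figure D5:**
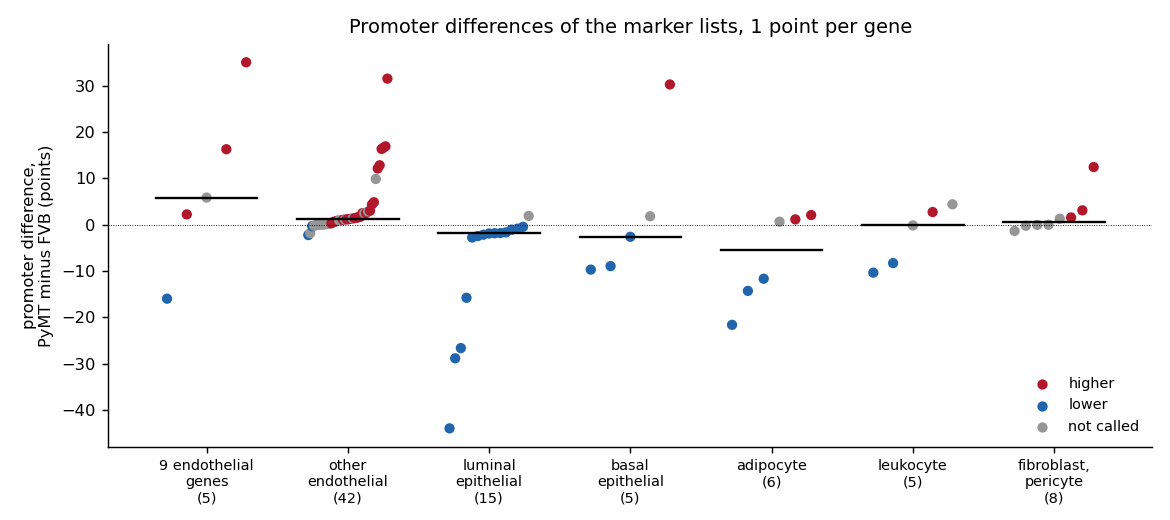
Promoter difference between PyMT and FVB (percentage points, y axis) for each gene of the marker lists with at least 3 promoter positions, in red where higher, blue where lower and grey where not called, with a line at each median. The endothelial lists lie mostly at or above 0, and the luminal epithelial list lies at or below 0 except for 1 gene that was not called.

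The promoters closest to that of Esam in their 8 group means were those of Mab21l2, Spag8 and 3930402G23Rik, at a root mean square distance of 4.19, 5.23 and 6.61 points. Those closest to Cdh5 were Th, Togaram2 and Gm12888, at 3.60, 3.90 and 3.93 points. Mab21l2 went from 43.0% to 66.5% in PyMT between weeks 6 and 12 and from 23.8% to 18.1% in FVB, and Th went from 35.1% to 23.5% in PyMT and from 50.2% to 50.7% in FVB.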

How the data were processed

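ERRBS libraries of 10 PyMT and 12 FVB mammary samples were analysed, grouped by genotype and week as labelled. The authors aligned reads to mm10 with Bismark and deposited, per strand of each CpG, the coverage (count of reads, at least 10) and the percent of methylated and unmethylated cytosines; methylated read counts were rounded from these.

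Positions covered in all 22 samples were kept (1140639 of 1625271). Per stage, a logistic likelihood ratio test compared the reads pooled over mice, with Benjamini-Hochberg q over all positions and a DMC at q under 0.01 and at least 10 points. Means of percent methylation over promoters, gene bodies and CpG clusters (at least 3 positions) were fitted with limma 3.58.1 in R 4.3.3 over 8 groups, with adjusted p over all regions, and exact permutation (two-sided) exchanged genotypes within weeks. Start sites and exons came from curated RefSeq transcripts of GRCm38.p6. The tests were tested on simulated data. Reads simulated for the logistic test had no spread between mice, so that check could not show how such spread affects its calls. The members and gene lists were chosen with earlier results of these data known. Named were all members, up to 3 positions per member with the largest change among those called by limma, up to 3 rises and falls of the other endothelial list, the 3 nearest promoters to the largest rise and fall, and up to 2 genes of each other list. The single genes of the leukocyte list are not reported here.

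Alternatives covered coverage, strands, pooling, scale, promoter width, transcript set, replicate block and each replicate left out. Samples came from separate mice, per the design the authors deposited.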

Additional observations from a re-analysis of the deposited data

Results flagged for a closer look

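3 positions of Eng outside the comparisons stood out, because they were not covered in all 22 samples but every covered PyMT sample lay above every covered FVB sample. Of 58 such partly covered positions in the 9 genes with at least 5 samples of each genotype, these were the 3 with that pattern. The share with that pattern over all partly covered positions of the series was not counted. At 32646805, in the promoter of Eng, 8 PyMT samples averaged 84.0% (71.4% to 100%) and 12 FVB samples 37.9% (26.1% to 67.7%), a difference of +46.1 points. Its neighbours 32646802, 32646832, 32646838 and 32646843 had differences of +40.6, +38.7, +32.2 and +27.2 points, with overlapping genotypes. Elsewhere in that promoter, 32646575, 32646595 and 32648137 had -10.5, -2.73 and +11.2 points. At 32654603, in the body, 9 PyMT samples averaged 89.2% and 12 FVB samples 65.8% (+23.4 points). At 32656117, also in the body, 10 PyMT samples averaged 78.9% and 10 FVB samples 45.5% (+33.4 points). The 2 promoter positions of Eng covered in all samples had averaged 15.1% in PyMT and 24.4% in FVB. These differences were not tested.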

How the results depend on the processing

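Every difference of a promoter or gene body with at least 3 positions kept its direction under every alternative except that of the Cdh5 body. That difference ran from -1.56 to 0.26 points without 1 or the other PyMT sample of week 6. 2 intron clusters of Esam near 0% also changed sign, at 2250 to 2388 bp running from -0.024 to 0.229 points and at 2864 to 2939 bp from -0.108 to 0.35 points. With a difference of at least 25 points, hyper-DMCs of the members numbered 9, 9, 16 and 13 of 228 at the 4 stages in order (0.854%, 1.05%, 1.55% and 1.82% of all positions) and hypo-DMCs 4, 5, 6 and 7 (2.81%, 3.12%, 4.05% and 4.57% of all positions). With limma per mouse they numbered 1, 2, 13 and 11, and 0, 1, 4 and 1. Members with a lower promoter numbered 2 with at least 1 position per region, where Emcn entered, and 0 with a promoter of 500 bp on each side, which holds no position of Cdh5. Members with a higher gene body numbered 2, with Eng added, on the M value scale (log2 ratio of methylated to unmethylated reads), with pooled reads, with a coverage minimum of 20 reads, by exact permutation and without CpGs whose strands differ. Leaving out each replicate in turn gave 16 to 23, 21 to 28, 32 to 36 and 23 to 38 hyper-DMCs and 11 to 21, 12 to 19, 21 to 26 and 13 to 22 hypo-DMCs at the 4 stages, 3 to 4 higher and 1 to 1 lower promoters, 1 to 2 higher and 4 to 4 lower bodies, 0 to 0 changes with week, and 23 to 26 other endothelial promoters called. Replicate numbers did not pair samples (10 pairs, correlations from -0.141 to 0.0869); with the replicate block the members had 19, 29, 37 and 35 hyper-DMCs and 16, 20, 25 and 18 hypo-DMCs, 3 higher and 1 lower promoters, 1 higher and 4 lower bodies. With 2 PyMT samples at weeks 6 and 12, leaving 1 out assumes that the lone sample varies like the other groups. The promoters of Cdh5, Pecam1 and Emcn rest on 3, 3 and 2 positions and the body of Emcn on 4, and coverage of 10 reads limits a single position most.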

Other observations

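The marker lists were also counted over gene bodies. Of 33 other endothelial genes with at least 3 body positions 10 were higher in PyMT and 12 lower by limma (20% and 46.4% of all bodies), with a median of -1.19 points. Of 10 luminal epithelial bodies 3 were higher and 7 lower, with a median of -11.3 points, and of 9 leukocyte bodies 0 were higher and 7 lower by limma with 2 not called, with a median of -8.16 points. Of 6 basal bodies 0 were higher and 5 lower, of 4 adipocyte bodies 2 were higher and 1 lower, and of 7 fibroblast and pericyte bodies 1 was higher and 4 lower.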
